A study of Mus musculus with 12 samples.

Results

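The genes described here are inducible brakes of MAP kinase signaling, mainly of ERK, that were chosen by name: 6 dual-specificity phosphatases (*Dusp1*, *Dusp2*, *Dusp4*, *Dusp5*, *Dusp6*, and *Dusp10*), the Sprouty genes *Spry1* and *Spry2*, and the Sprouty-related genes *Spred1* and *Spred2*. Members were found by their gene symbols, with no threshold on a measured value. All 10 were found among the 32051 genes of the expression table, and all 10 passed the minimum of a mean of 0.1 FPKM (fragments per kilobase of transcript and per unit of library size) that left 13733 genes for testing. On GRCm38 (GENCODE M21) *Dusp1* lies at chr17:26505590-26562128, *Dusp2* at chr2:127336159-127338376, *Dusp4* at chr8:34807297-34819894, *Dusp5* at chr19:53529109-53542431, *Dusp6* at chr10:99263231-99267489, and *Dusp10* at chr1:184013302-184075636. *Spry1* lies at chr3:37639947-37644598, *Spry2* at chr14:105891947-105896819, *Spred1* at chr2:117121374-117182279, and *Spred2* at chr11:19924375-20024026.

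RNA was sequenced from mouse Th9 cells, the IL-9-producing helper T cells, which were polarized in culture from naive splenic CD4+ T cells of C57BL/6J mice. Every group received IL-4 (10 ng/mL) and TGF-β (1 ng/mL) with anti-CD3 and anti-CD28 stimulation and antibodies against IL-12 and IFN-γ, and RNA was taken on day 4. Control Th9 cells received the vehicle DMSO, EpA-Th9 cells received EpA (endomelipeptide A, a cyclic peptide from a fungus that lives in *Ganoderma lucidum*), another group received fatostatin, an inhibitor of SREBP1, with DMSO, and the last received EpA and fatostatin together, with 3 libraries in each of the 4 groups. The study gives the T cell kinase ZAP70, which acts upstream of MEK and ERK, and SREBP1, a transcription factor of lipid synthesis, as targets of EpA. The comparisons ask how the chosen genes were expressed when either compound was present. The study describes its Th9 samples for RNA-seq as independent, but it does not state whether the replicates came from separate mice or separate cultures. The p-values measure the spread between these libraries, which may be technical if the replicates shared a mouse or a culture.

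As background, ERK is switched on by phosphorylation downstream of the T cell receptor through RAS, RAF, and MEK, and it induces genes whose products switch it off again. DUSP proteins remove the phosphates from MAP kinases: DUSP5 acts on nuclear ERK, DUSP6 on cytoplasmic ERK, DUSP1, DUSP2, and DUSP4 on nuclear ERK and, to differing degrees, the stress kinases p38 and JNK, whereas DUSP10 acts mainly on p38 and JNK. Sprouty and SPRED proteins act higher up, where they restrain RAS and RAF, and transcripts of many of these genes rise and decay quickly, so that their level is often used as a readout of pathway output.

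Promoter sequence was examined because several of these genes are textbook targets of ERK-driven transcription factors. RefSeq windows of the GRCm38.p6 build, read for the 250 bases upstream of the annotated start, were at hand for 9 of the 10 genes, and for *Dusp4* none was used. For *Dusp1*, *Dusp5*, *Dusp10*, and *Spred2* the RefSeq start is internal to the GENCODE gene span given above, downstream of its outermost start. For *Spred1* it lies upstream of that span. Each was searched on both strands for the CArG box (the site of serum response factor, searched by name), the cyclic AMP response element TGACGTCA, the AP-1 site TGANTCA, and the ETS core CCGGAAG. Matches were found in 2 of the 9, with 1 response element in *Dusp1*, 143 to 136 bases upstream, and a tandem pair of CArG boxes in *Dusp5*, 82 to 73 and 72 to 63 bases upstream. Over 32851 windows of the same length, 1.47% held a CArG box, 1.55% the response element, 6.75% the AP-1 site, and 6.91% the ETS core. The 4 stretches shown cover 250 to 51 bases upstream of the start of the 2 genes with a match and of *Dusp6* and *Dusp10*, the genes with the largest falls in EpA-Th9 cells, 5′ to 3′ on the gene's strand with matches in capitals. They lie at chr17:26508523-26508722 (minus strand, *Dusp1*), chr19:53528895-53529094 (plus strand, *Dusp5*, over an exon of the antisense gene *AC137853.2*), chr10:99262981-99263180 (plus strand, *Dusp6*), and chr1:184034131-184034330 (plus strand, *Dusp10*, over an exon of *1700056E22Rik*).
Dusp1: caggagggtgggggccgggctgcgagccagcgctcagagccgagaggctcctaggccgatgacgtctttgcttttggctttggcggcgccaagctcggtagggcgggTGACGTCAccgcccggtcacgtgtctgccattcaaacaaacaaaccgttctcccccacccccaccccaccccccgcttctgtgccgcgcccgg
Dusp5: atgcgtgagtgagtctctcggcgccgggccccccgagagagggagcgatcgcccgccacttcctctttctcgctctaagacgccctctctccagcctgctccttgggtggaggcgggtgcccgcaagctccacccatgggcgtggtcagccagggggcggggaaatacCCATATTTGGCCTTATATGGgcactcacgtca
Dusp6: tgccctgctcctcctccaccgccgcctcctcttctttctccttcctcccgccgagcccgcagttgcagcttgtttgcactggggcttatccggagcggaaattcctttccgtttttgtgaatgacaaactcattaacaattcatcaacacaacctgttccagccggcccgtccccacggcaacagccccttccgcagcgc
Dusp10: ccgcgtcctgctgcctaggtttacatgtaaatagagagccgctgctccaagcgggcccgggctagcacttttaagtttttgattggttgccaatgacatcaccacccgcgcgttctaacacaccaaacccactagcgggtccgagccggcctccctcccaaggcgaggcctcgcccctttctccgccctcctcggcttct
A match is a run of letters and not evidence of binding, and a window without one says only that these letters are not in it.

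The libraries held 36019740 to 43656682 reads on genes, a 1.21-fold range, so that 1 read on a 1-kb transcript was worth 0.0225 to 0.0273 FPKM. All 9 marker genes of T and Th9 cells passed the minimum, and their summed level was 859.8 to 872.6 FPKM with DMSO, 1361 to 1400 with EpA, 862.7 to 873.2 with fatostatin, and 1534 to 1594 with both, with *Il9* alone at 619.9 to 854.9 FPKM in the groups with EpA and 51.02 to 70.79 in those without. The sum rose through *Il9*, while 6 of the 9 genes were lower with EpA against DMSO (limma, adjusted p below 0.05, log2 fold changes of -0.53 for *Cd28*, -0.33 for *Cd3e*, -0.27 for *Cd3g*, -0.24 for *Cd3d*, -0.20 for *Lck*, and -0.12 for *Irf4*) and 3 were higher, where 13.1% and 14.3% of all tested genes were, and the median of the 9 was -0.20. Summed in the order DMSO, EpA, fatostatin, and both, 5 B cell markers were at 5.992 to 7.904, 5.202 to 6.229, 7.555 to 8.681, and 6.287 to 6.893 FPKM, the 2 CD8 genes at 8.714 to 9.795, 7.847 to 8.567, 8.547 to 10.21, and 6.978 to 8.604, and 6 myeloid markers at 1.283 to 1.397, 1.273 to 1.785, 1.571 to 2.389, and 1.871 to 2.904. Single markers moved with the groups, named after their values were seen: with EpA against DMSO *Cd8a* was lower (-1.08 ± 0.110, limma, adjusted p = 2.85e-05), as was *Cd79a* (-0.60 ± 0.153, adjusted p = 0.0127, lost without EpA replicate 1 and with voom, up to 0.0586), and *Lyz2* was higher with EpA (1.07 ± 0.257, adjusted p = 0.00934) and with fatostatin (1.15 ± 0.257, adjusted p = 0.0113, lost in a fit of the compared groups alone, 0.053). *Lyz2* rested on 0 to 4 reads per library with DMSO, 6 to 12 with EpA, and 8 to 13 with fatostatin. *Cd68*, the only other myeloid marker tested, was not called in either comparison (limma, adjusted p = 0.826 and 0.228). Named in the same way, with both compounds against EpA *Cd79a* was higher (0.72 ± 0.153, limma, adjusted p = 0.00828) and *Cd8a* lower (-0.62 ± 0.110, adjusted p = 0.00281). The sum of the 4 NK cell markers also moved, at 4.866 to 5.318 FPKM in DMSO, 2.587 to 3.178 in EpA, 3.656 to 4.024 in fatostatin, and 1.819 to 2.355 with both compounds. Nearly all of this was *Klrd1*, since *Ncr1* and *Klrb1c* were at most 0.0659 FPKM in any library and did not reach the minimum for testing. *Klrd1* was lower with EpA both without fatostatin (-0.79 ± 0.104, limma, adjusted p = 0.000196) and with it (-0.85 ± 0.104, adjusted p = 9.85e-05), and so was *Eomes*, at 0.1775 to 0.2657 FPKM with DMSO and 0.05445 to 0.0906 with EpA (-0.90 ± 0.209, adjusted p = 0.00779, and -0.94 ± 0.209, adjusted p = 0.00554). The part of these markers in the results was not tested, and in bulk RNA fewer cells of a type and less RNA per cell cannot be told apart.

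In control Th9 cells the brakes covered a wide range of levels, which FPKM allows to be compared between genes because it is scaled by length. *Dusp4* stood first at 101.1 ± 2.2 FPKM (SD, n = 3), above 96.9% of tested genes, followed by *Dusp5* at 36.54 ± 0.320 and *Dusp10* at 33.22 ± 1.28. *Dusp2*, first known from activated T cells, was at 12.36 ± 0.426 FPKM and *Spred2* at 8.234 ± 0.375. *Dusp6*, *Dusp1*, and *Spred1* were low, at 3.423 ± 0.389, 2.432 ± 0.0485, and 2.004 ± 0.114 FPKM. *Spry1* (0.7241 ± 0.0745 FPKM) and *Spry2* (0.5705 ± 0.229 FPKM) were near the bottom, and they were the only neighbors in this order whose library ranges overlapped in control cells. The order of the first 5 genes by mean was the same in all 4 groups, and the ranges of *Dusp2* and *Spred2* overlapped with both compounds. Below them the order moved, and with EpA the ranges of *Spred1* and *Dusp6*, and of *Dusp6* and *Dusp1*, overlapped, as did those of *Dusp1* and *Spred1* with fatostatin alone or with both compounds.

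**Figure D1:**
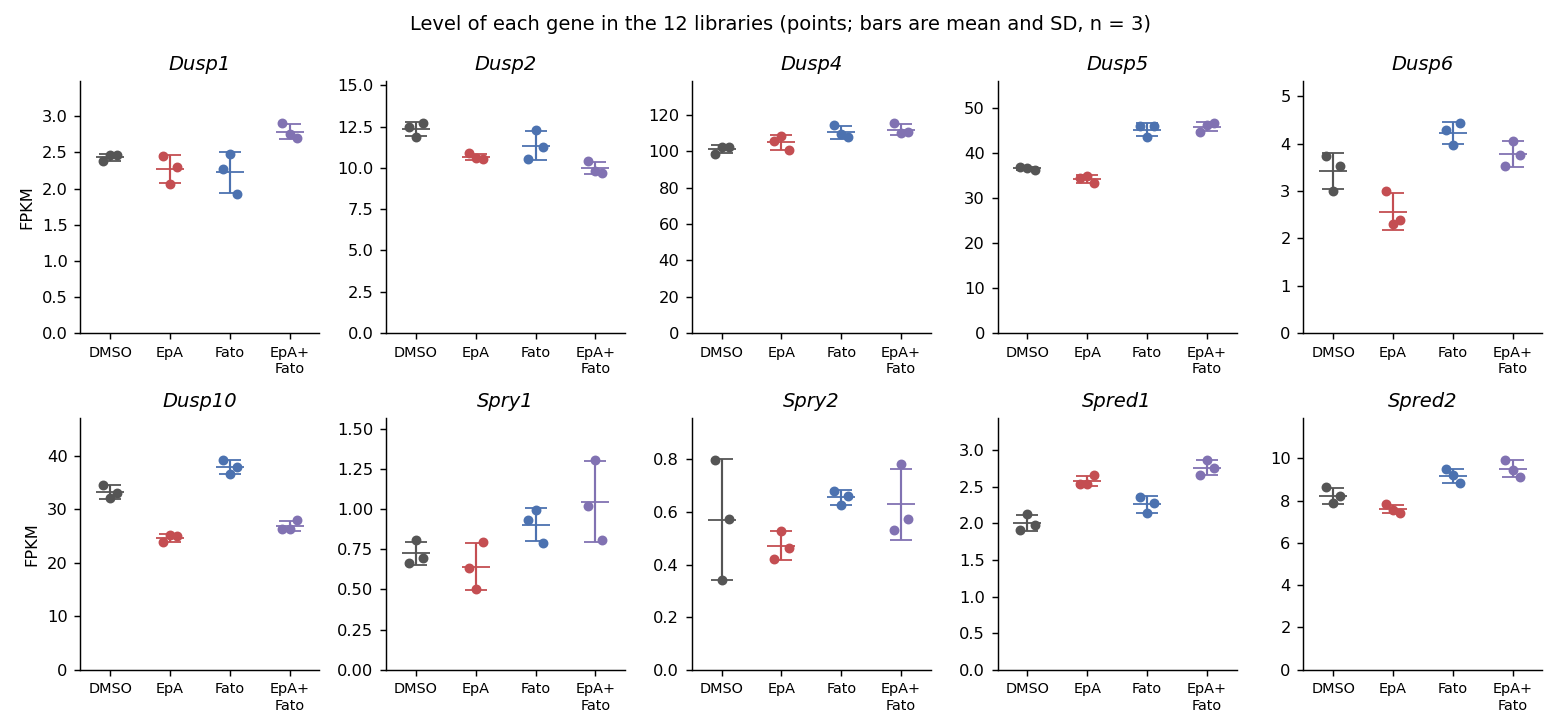
Level of each gene in FPKM (y axis, linear from 0, a different scale in each panel) in the 4 groups (x axis; Fato is fatostatin), with 1 point per library and bars for the mean and SD (n = 3). *Dusp10* is lower in both groups that received EpA, at 23.8 to 27.96 FPKM against 32.04 to 39.22, and *Dusp5* is higher in both groups that received fatostatin, at 43.42 to 46.59 FPKM against 33.26 to 36.87.

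EpA against the vehicle, without fatostatin, lowered 4 of the 10 genes and raised 1. *Dusp2*, *Dusp5*, *Dusp6*, and *Dusp10* fell and *Spred1* rose at an adjusted p below 0.05 (limma, Benjamini-Hochberg over all tested genes), where 13.1% of all tested genes were lower and 14.3% higher. The median log2 fold change was -0.14 over the 10 genes and 0.00 over all tested genes. None of the 10 passed the study's second threshold of a 1.5-fold change, which 3.38% of all genes passed together with the adjusted p. The EpA libraries did not overlap the DMSO libraries for 5 of the 10, with 1 higher and 4 lower, against 21.7% and 20.8% of all genes.

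The p38- and JNK-directed phosphatase *Dusp10* showed the clearest difference. Its level was 34.58, 32.04, and 33.05 FPKM in the DMSO libraries and 23.8, 25.21, and 24.95 in the EpA libraries. With fatostatin present it was 39.22, 36.47, and 37.87 FPKM without EpA and 26.36, 26.24, and 27.96 with EpA. Every library with EpA lay below every library without it. The log2 fold change of EpA, on the log2(FPKM + 0.1) scale used throughout, was -0.43 ± 0.0383 (SE) without fatostatin (limma, adjusted p = 1.06e-05) and -0.49 ± 0.0383 with it (adjusted p = 3.31e-06). Fatostatin against DMSO moved *Dusp10* the other way, by a log2 value of 0.19 ± 0.0383 (limma, adjusted p = 0.00703). These 3 calls were kept in each of the 16 alternative settings tried for them, which leave the 1.5-fold rule aside. In the presence of EpA the effect of fatostatin on *Dusp10* was 0.12 ± 0.0383 with an adjusted p of 0.0515 (limma), and although the libraries did not overlap it did not pass, except with a minimum mean of 1 FPKM (0.0404), TPM scaling (0.0492), or voom, limma's weighting of read counts, on recovered reads (0.0303).

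The ERK phosphatases that EpA lowered did so by less or less securely. *Dusp2* read 12.49, 11.89, and 12.71 FPKM with DMSO and 10.88, 10.57, and 10.54 with EpA, and 10.52, 12.27, and 11.25 FPKM with fatostatin against 10.43, 9.823, and 9.71 with both compounds. The EpA libraries were below their controls without overlap in both settings, but 1 fatostatin library lay only just above the highest library with both. Its log2 fold change with EpA was -0.21 ± 0.0514 without fatostatin (limma, adjusted p = 0.0101) and -0.18 ± 0.0514 with it (adjusted p = 0.0209). The second of these calls was lost without fatostatin replicate 2 (adjusted p = 0.0721) or without replicate 2 (0.0649) or 3 (0.0725) of the group with both compounds, and in a fit of the compared groups alone (0.0713). With fatostatin alone the difference of *Dusp2* was -0.12 ± 0.0514 (limma, adjusted p = 0.144), which passed only without fatostatin replicate 2 (-0.18, adjusted p = 0.0268).

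*Dusp6*, the cytoplasmic ERK phosphatase and a common marker of ERK activity, had 3.75, 2.993, and 3.525 FPKM in the DMSO libraries and 3.01, 2.3, and 2.39 in the EpA libraries. The highest EpA library was therefore level with the lowest DMSO library, so the groups overlapped. The log2 fold change came to -0.41 ± 0.106 (limma, adjusted p = 0.0151), and the call was lost without DMSO replicate 1 (adjusted p = 0.0611) or 3 (0.051) or EpA replicate 2 (0.0607) or 3 (0.0566). With fatostatin present, *Dusp6* was at 4.281, 3.981, and 4.438 FPKM without EpA and 3.524, 4.055, and 3.771 with it, a difference of -0.16 ± 0.106 that did not pass (adjusted p = 0.303).

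*Dusp5*, the nuclear ERK phosphatase, differed little with EpA alone, from 36.87, 36.53, and 36.23 FPKM to 34.37, 34.89, and 33.26. The libraries did not overlap, and the log2 fold change was -0.10 ± 0.0272 (limma, adjusted p = 0.021), but the call was lost without DMSO replicate 1 (adjusted p = 0.0664) or 2 (0.0531) or EpA replicate 3 (0.0832). *Dusp4* (0.05 ± 0.0330, adjusted p = 0.274) and *Dusp1* (-0.10 ± 0.0884, adjusted p = 0.472) did not pass. The 95% interval of *Dusp4*, the most abundant member, ran from -0.02 to 0.13, and that of *Dusp1* from -0.29 to 0.10.

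*Spred1*, which restrains RAS with the help of neurofibromin, was the member that EpA raised both without and with fatostatin. It read 1.905, 2.128, and 1.98 FPKM with DMSO and 2.538, 2.541, and 2.66 with EpA, and 2.365, 2.138, and 2.278 FPKM with fatostatin against 2.657, 2.868, and 2.759 with both. All EpA libraries were above their controls. The log2 fold change was 0.35 ± 0.0614 without fatostatin (limma, adjusted p = 0.00145) and 0.28 ± 0.0614 with it (adjusted p = 0.00538), and both calls were kept in each of the 16 alternatives. Its relative *Spred2* did not pass, with a log2 fold change of -0.11 ± 0.0447 for EpA against DMSO (limma, adjusted p = 0.0846), although its 3 EpA libraries (7.832, 7.541, and 7.424 FPKM) were below its DMSO libraries (8.617, 7.868, and 8.216 FPKM). *Spry1* (-0.17 ± 0.181) and *Spry2* (-0.17 ± 0.226) did not pass (adjusted p = 0.556 and 0.626), and at 58 to 98 reads for *Spry1* and 29 to 61 for *Spry2* per library in these 2 groups their 95% intervals reached from -0.56 to 0.23 and from -0.67 to 0.32.

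**Figure D2:**
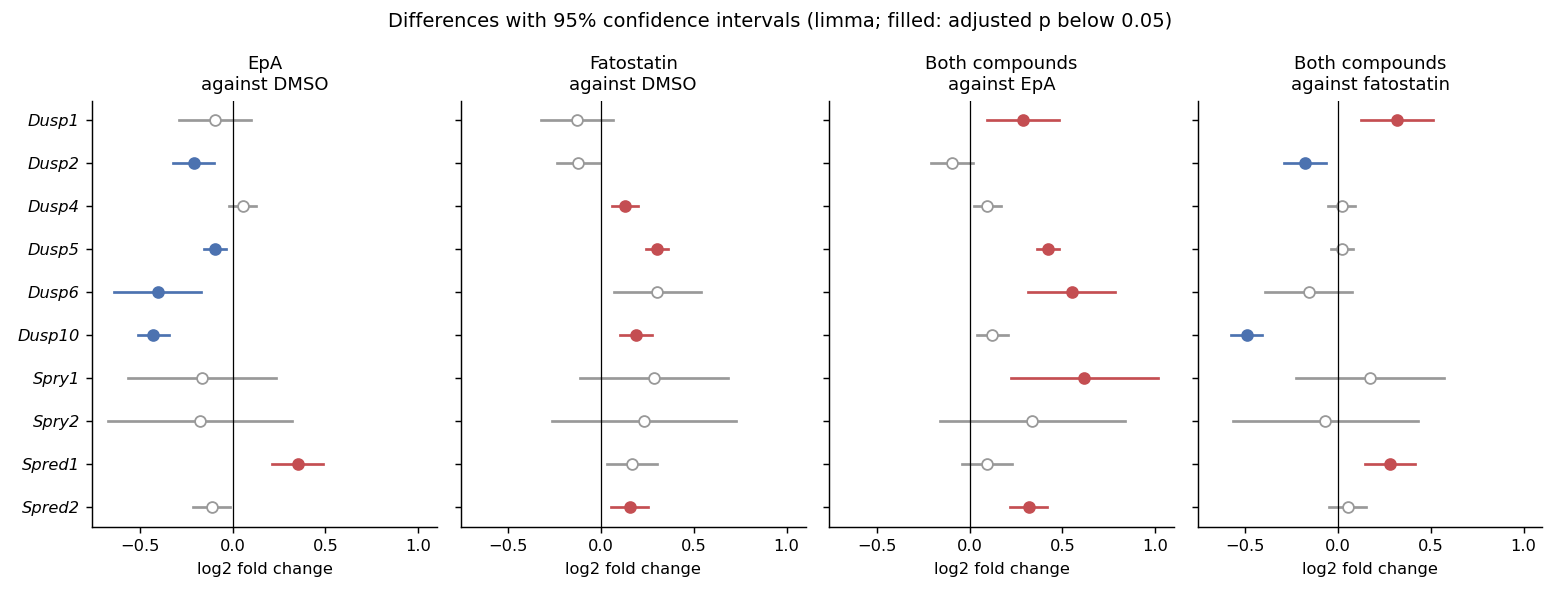
Log2 fold change (x axis) of each gene (y axis) in the 4 comparisons, with 95% confidence intervals from limma. Filled points passed an adjusted p of 0.05 (red higher, blue lower), and open gray points did not. With EpA 4 genes are lower and 1 is higher in the absence of fatostatin and 2 are lower and 2 higher in its presence, and with fatostatin 4 are higher in the absence of EpA and 5 in its presence, with none lower.

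Fatostatin against the vehicle raised 4 of the 10 genes, *Dusp4*, *Dusp5*, *Dusp10*, and *Spred2*, and lowered none (limma, adjusted p below 0.05), where 7.69% of all tested genes were higher and 6.31% lower. In cells that also received EpA it raised 5, *Dusp1*, *Dusp5*, *Dusp6*, *Spry1*, and *Spred2*, and again lowered none, against 9.22% and 6.79% of all genes. The median log2 fold change of the 10 genes was 0.18 in the first comparison and 0.30 in the second, against 0.01 in both for all tested genes. At an unadjusted p below 0.05, 7 of the 10 passed in each comparison (26.8% and 28.7% of all genes), and *Dusp2* was the one of these that was lower, with fatostatin alone. The libraries did not overlap for 6 genes, all higher, without EpA (16.5% of all genes were higher and 14.8% lower in this way) and for 8 higher genes and 1 lower gene (*Dusp2*) with EpA (18.9% and 14.4%). No member passed the adjusted p together with a 1.5-fold change without EpA, which 1.86% of all genes did.

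*Dusp5* carried the fatostatin effect most clearly. Against the DMSO and EpA libraries given above, it read 45.84, 43.42, and 45.95 FPKM with fatostatin and 44.7, 46.11, and 46.59 with both compounds. All 6 libraries with fatostatin were above all 6 without it. The log2 fold change of fatostatin was 0.30 ± 0.0272 without EpA (limma, adjusted p = 2.29e-05) and 0.42 ± 0.0272 with EpA (adjusted p = 1.56e-06), and both calls were kept in each of the 16 alternatives. Once fatostatin was present EpA made no detectable difference to *Dusp5* (0.02 ± 0.0272, 95% interval -0.04 to 0.08, limma adjusted p = 0.577). Its exons share 547 bases, 22.1% of their length, with the antisense gene *AC137853.2*, and whether the counting used strand is not given, so reads of the 2 genes cannot be told apart in that stretch.

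*Spred2* moved in the same direction as *Dusp5*. It read 9.489, 9.217, and 8.808 FPKM with fatostatin and 9.929, 9.457, and 9.134 with both compounds. Each fatostatin group was above its control without overlap. The rise was 0.32 ± 0.0447 in EpA-Th9 cells (limma, adjusted p = 0.000606), kept in each of the 16 alternatives. In cells without EpA it was 0.15 ± 0.0447 (adjusted p = 0.0412), and this call was lost in 8 of 16 alternatives, among them those without DMSO replicate 2 (adjusted p = 0.136) or 3 (0.101) or fatostatin replicate 1 (0.14) or 2 (0.102).

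For *Dusp6* the libraries with fatostatin, given above, were all higher than their controls both without and with EpA. The difference passed in EpA-Th9 cells, at 0.55 ± 0.106 (limma, adjusted p = 0.00466, kept in each of the 16 alternatives), and did not pass in cells without EpA, at 0.30 ± 0.106 (adjusted p = 0.0868), except with voom on recovered reads (adjusted p = 0.021). The abundant *Dusp4* read 98.53, 102.4, and 102.2 FPKM with DMSO and 114.5, 109.3, and 107.8 with fatostatin, and 105.7, 108.6, and 100.5 FPKM with EpA against 115.6, 110.1, and 110.5 with both. Fatostatin libraries were higher in both settings, by 9.37% and 6.80% of the control mean. The log2 fold change of 0.13 ± 0.0330 without EpA passed (limma, adjusted p = 0.0228), but not without DMSO replicate 1 (adjusted p = 0.0903) or fatostatin replicate 1 (0.0868) or in a fit with no intensity trend (0.0592), and that of 0.10 ± 0.0330 with EpA did not pass (adjusted p = 0.075) except with voom (0.0193) or without EpA replicate 2 (0.0466).

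*Dusp1*, an immediate-early phosphatase, was at its highest level where both compounds were present. It read 2.376, 2.461, and 2.459 FPKM with DMSO, 2.445, 2.069, and 2.304 with EpA, 2.266, 2.485, and 1.924 with fatostatin, and 2.907, 2.753, and 2.705 with both. The libraries with both compounds were above the other 9, which overlapped one another. The difference was 0.29 ± 0.0884 from EpA (limma, adjusted p = 0.0492) and 0.32 ± 0.0884 from fatostatin (adjusted p = 0.0181). The first call was lost in 11 of 16 alternatives, with adjusted p of 0.0814 to 0.164 when EpA replicate 2 or 3 or any 1 library with both compounds was left out, and the second was lost without fatostatin replicate 3 (0.062) or replicate 1 with both compounds (0.0592) and in a fit of the compared groups alone (0.0536). *Dusp1* shares 11 exon bases, 0.3% of their length, with the antisense gene *Ergic1*, which was at 12.21 to 15.7 FPKM.

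The Sprouty genes were the least precisely measured. *Spry1* read 0.6674, 0.8085, and 0.6964 FPKM with DMSO, 0.6315, 0.5009, and 0.7965 with EpA, 0.9305, 0.9928, and 0.79 with fatostatin, and 1.02, 1.308, and 0.8061 with both. The lowest library with both compounds was only just above the highest EpA library. Its log2 fold change between these groups, 0.62 ± 0.181, passed an adjusted p of 0.05 (limma, adjusted p = 0.039), and it was the only member change to reach 1.5-fold as well, which 1.51% of all genes did in that direction. The call was lost in 8 of 15 alternatives, among them those without EpA replicate 1 (adjusted p = 0.091) or 2 (0.136) or replicate 1 (0.0892) or 2 (0.131) of the group with both, and 24.4% of its exon bases (710) are shared with the antisense gene *Gm42922*. *Spry2*, at 29 to 68 reads per library, passed in none of the 4 comparisons, with adjusted p of 0.366 to 0.862 (limma).

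Summed over the 6 genes, the *Dusp* transcripts came to 188.3 to 190.2 FPKM with DMSO, 173.9 to 183.6 with EpA, 207.9 to 216.6 with fatostatin, and 199.1 to 203.5 with both. The ranges of the 4 groups did not overlap. *Dusp4*, *Dusp5*, and *Dusp10* made up 90.1% to 92.1% of the sum in each library. Of these, *Dusp10* was lower with EpA without overlap both without and with fatostatin, *Dusp5* only without it, and *Dusp4* in neither setting. The sum was not tested, and its fall with EpA is not a fall of each gene. The sum of *Spry1*, *Spry2*, *Spred1*, and *Spred2*, mostly *Spred2*, was 11.15 to 11.99 FPKM with DMSO, 11.11 to 11.42 with EpA, 12.54 to 13.47 with fatostatin, and 13.27 to 14.42 with both. These sums overlapped between groups that differed by EpA and not between groups that differed by fatostatin.

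When fatostatin was present in both groups, EpA lowered 2 of the 10 genes (*Dusp2* and *Dusp10*) and raised 2 (*Dusp1* and *Spred1*), against 13.3% and 16.2% of all tested genes (limma, adjusted p below 0.05). Libraries did not overlap for 2 lower and 2 higher genes (19.0% and 22.5% of all genes). None of the 10 passed the adjusted p together with a 1.5-fold change, against 3.75% of all genes. This comparison shares no library with EpA against DMSO. The 2 effects had the same sign for 6 of the 10 genes, against 76.7% of all tested genes, and *Dusp2*, *Dusp10*, and *Spred1* passed in the same direction in both. The 2 effects of fatostatin, which also share no library, had the same sign for 9 of the 10 genes, against 71.0% of all genes, and *Dusp5* and *Spred2* passed in the same direction in both.

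Whether fatostatin altered the effect of EpA was tested as an interaction, which passed for 0 of the 10 genes and for 0.0437% of all tested genes (limma, adjusted p below 0.05). At an unadjusted p below 0.05 it passed for 3 of the 10 and for 7.89% of all genes. These were *Dusp1* (0.42, 95% interval 0.14 to 0.69, limma adjusted p = 0.406), *Dusp5* (0.12, 0.04 to 0.20, adjusted p = 0.44), and *Spred2* (0.16, 0.03 to 0.30, adjusted p = 0.553). For *Dusp10* the interval ran from -0.18 to 0.05 and for *Spred1* from -0.26 to 0.12.

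**Figure D3:**
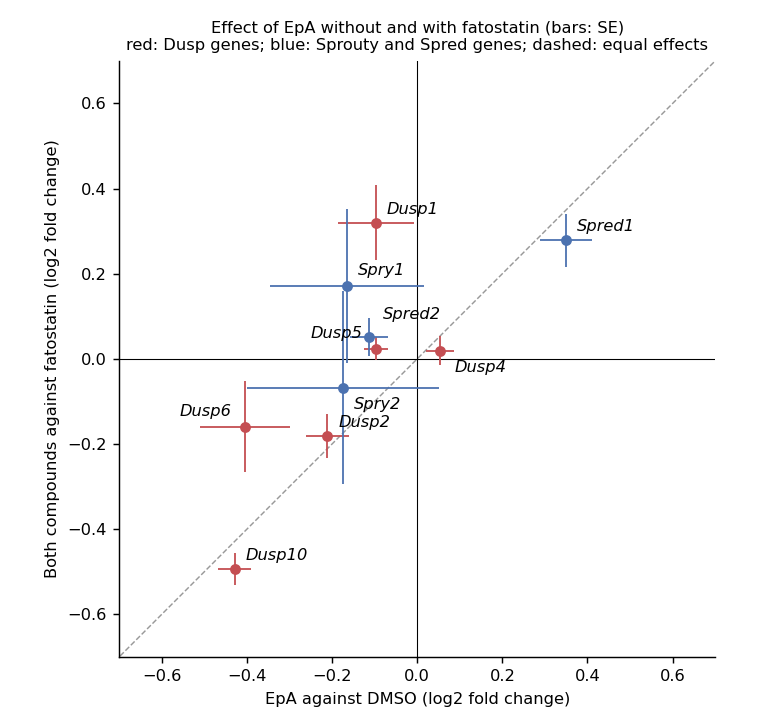
Log2 fold change with EpA in the absence (x axis) and presence (y axis) of fatostatin, 1 point per gene with SE bars, and a dashed line where both effects are equal. *Dusp10* (-0.43 and -0.49), *Dusp2* (-0.21 and -0.18), and *Spred1* (0.35 and 0.28) lie near the line, and *Dusp1* (-0.10 and 0.32) lies farthest above it.

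The genes around the brakes were read from hand-written lists of the pathway. Of 19 tested genes of the ERK cascade, which run from T cell receptor signaling to ERK and to the RSK kinases that ERK activates, EpA raised 2 and lowered 3, shares near the 14.3% and 13.1% of all tested genes. *Rasgrp1*, the exchange factor that loads RAS after receptor triggering, had the largest of these changes, from 48.99 to 50.95 FPKM in the DMSO libraries to 27.74 to 28.89 in the EpA libraries (-0.80 ± 0.0282, limma, adjusted p = 9.03e-09). *Map2k1*, which encodes the kinase of ERK, was higher by 0.33 ± 0.0337 (adjusted p = 3.21e-05), and *Braf* was lower by a log2 value of -0.16 ± 0.0515 (adjusted p = 0.0409), a call lost in 9 of 16 alternatives, among them those without any 1 EpA library or without DMSO replicate 2 or 3. With fatostatin alone, where 7.69% of all genes were higher and 6.31% lower, 1 of the 19 passed, *Rasgrp1*, which was higher by 0.15 ± 0.0282 (limma, adjusted p = 0.00515).

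Other restraints on RAS and receptor signaling, a list of 10 RAS GTPase-activating, DOK, and CBL genes, had 5 lower and 1 higher with EpA (13.1% and 14.3% of all genes), with a median log2 fold change of -0.14. *Cblb*, a ubiquitin ligase that limits T cell activation, fell from 10.24 to 11.01 FPKM to 7.312 to 7.586 (-0.51 ± 0.0364, limma, adjusted p = 2.29e-06). *Rasal3* (-0.32 ± 0.0212) and *Dok2* (-0.30 ± 0.0312) also fell (adjusted p = 1.36e-06 and 3.24e-05). Fatostatin alone raised 3 of the 10 and lowered 1 (7.69% and 6.31% of all genes). *Cblb* (0.39 ± 0.0364, adjusted p = 2.94e-05) rose and *Dok2* (-0.21 ± 0.0312, adjusted p = 0.000969) fell. *Rasa3* (0.20 ± 0.0494) passed with a limma adjusted p of 0.021, a call lost without DMSO replicate 1 or 3 or fatostatin replicate 1 or 2 (up to 0.0806).

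Genes that ERK is known to induce did not move as a block. Of 15 tested, EpA raised 6 and lowered 5 (14.3% and 13.1% of all genes). *Fosl2* (0.66 ± 0.0412), *Ier3* (0.65 ± 0.0598), and *Junb* (0.43 ± 0.0334), a pair of AP-1 subunits and an early-response gene, rose (limma, adjusted p = 7.61e-07, 1.39e-05, and 3.96e-06). *Egr1*, the classical serum response gene, named after its values were seen because its mean was under 1 FPKM, went the other way, from 0.8834 to 1.205 FPKM with DMSO to 0.316 to 0.4309 with EpA (-1.22 ± 0.136, limma, adjusted p = 5.63e-05). It was at 1.499 to 1.641 FPKM with fatostatin, above all DMSO libraries (0.64 ± 0.136, adjusted p = 0.00897), and at 0.751 to 0.9131 with both compounds. Fatostatin alone raised 3 of the 15 and lowered 3 (7.69% and 6.31% of all genes). *Phlda1* (0.57 ± 0.062, adjusted p = 0.000101) rose and *Junb* (-0.17 ± 0.0334, adjusted p = 0.00553) fell. *Ier3* (-0.24 ± 0.0598) passed with a limma adjusted p of 0.0193, a call lost without DMSO replicate 3 or fatostatin replicate 3 and with voom (up to 0.0749).

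The p38 and JNK cascade, on which DUSP10 acts, had 6 of 14 tested genes higher and 5 lower with EpA (14.3% and 13.1% of all genes). The p38 genes *Mapk12* (0.48 ± 0.121) and *Mapk11* (0.29 ± 0.0565) and the JNK kinase gene *Map2k4* (0.28 ± 0.0330) passed (limma, adjusted p = 0.0128, 0.00284, and 9.17e-05), with that of *Mapk12* lost without DMSO replicate 2 or EpA replicate 2 (up to 0.0519). Among those that fell, named after their values were seen, were the p38 gene *Mapk14* (25.2 to 22.4 FPKM, -0.17 ± 0.0276), the JNK gene *Mapk9* (-0.14 ± 0.0323), and the p38 kinase gene *Map2k6* (-0.20 ± 0.05), with limma adjusted p of 0.000909, 0.00716, and 0.013, and the last of these was lost without EpA replicate 3 (0.0532). Against 7.69% and 6.31% of all genes, fatostatin alone raised 3 of the 14, with *Mapk8*, which encodes JNK1, at 0.22 ± 0.0485 and *Map3k7* at 0.14 ± 0.0286 (adjusted p = 0.00966 and 0.00735), and lowered *Map2k7* (-0.18 ± 0.0417, limma, adjusted p = 0.0125, lost without DMSO replicate 3 or fatostatin replicate 1, up to 0.0536).

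Of 8 tested MAP kinase phosphatases outside the 10 members, EpA raised 2 and lowered 2 (14.3% and 13.1% of all genes), and fatostatin raised 1 and lowered 1 (7.69% and 6.31%). *Dusp16*, a JNK-directed phosphatase, was the one that passed in both, at 0.24 ± 0.0763 with EpA (limma, adjusted p = 0.0373) and -0.34 ± 0.0763 with fatostatin (adjusted p = 0.012), the signs opposite to those of *Dusp10*. The first of these calls was lost in 7 of 16 alternatives, among them those without any 1 EpA library or without DMSO replicate 1 or 3 (up to 0.12). *Ptpn7*, a hematopoietic phosphatase of ERK and p38, was lower with EpA (-0.14 ± 0.0242, limma, adjusted p = 0.00107). *Dusp3*, named after its values were seen because its mean was under 1 FPKM, was higher by 0.94 ± 0.125 (adjusted p = 0.000213). *Dusp14* was higher with fatostatin (0.19 ± 0.0478, limma, adjusted p = 0.0228), a call lost in 5 of 16 alternatives, among them those without DMSO replicate 1 or 3 or fatostatin replicate 3 (up to 0.16). The further relatives *Spry4*, at most 0.02844 FPKM in any library, and *Spred3*, at 0.5235 to 0.8014 FPKM, were not called in any comparison, *Spry4* because it did not reach the minimum for testing.

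**Figure D4:**
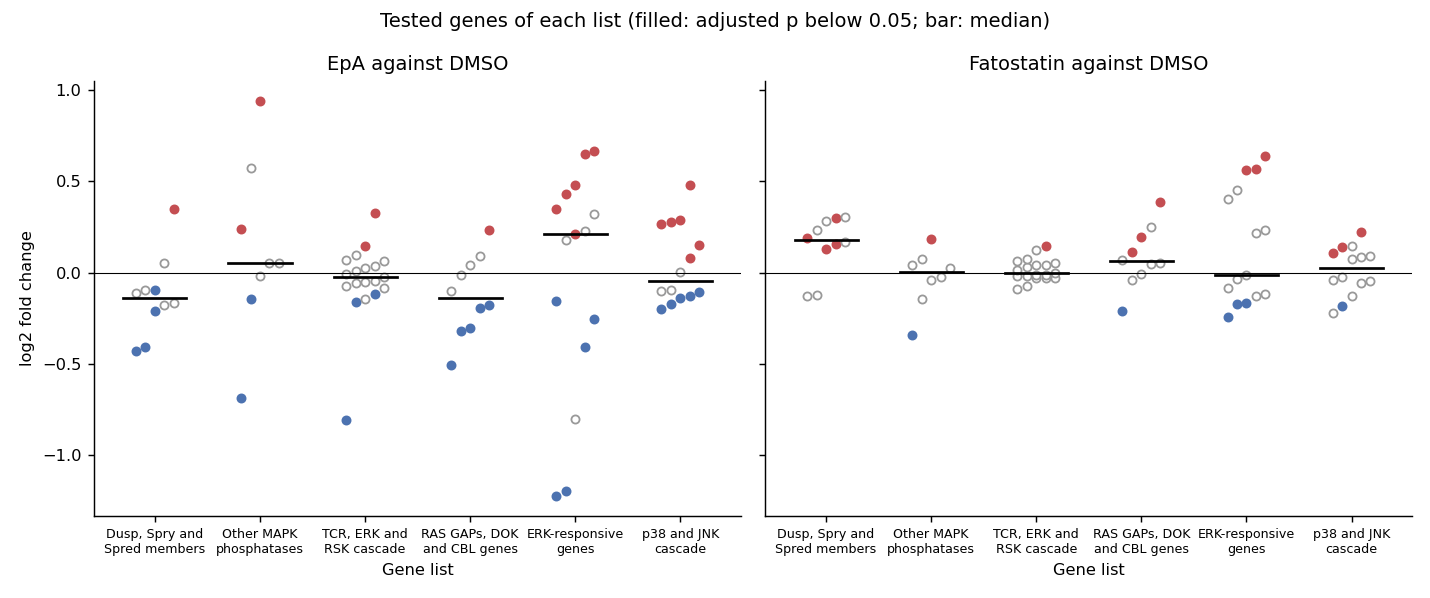
Log2 fold change (y axis) of each tested gene in the 10 members and 5 pathway lists (x axis), for EpA against DMSO (left) and fatostatin against DMSO (right), with a bar at the median of each list. Filled points passed an adjusted p of 0.05 (limma, red higher, blue lower). The members' median is -0.14 with EpA and 0.18 with fatostatin, and the ERK-responsive genes spread from *Egr1* at -1.22 to *Fosl2* at 0.66 with EpA.

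As a description of pattern, the genes most like each member over the 12 libraries were sought in the 10298 genes that averaged 1 FPKM or more, by Pearson's r of log2 values that share 4 group means and library depth. *Dusp10* was most like *Bcl11b* (r = 0.99) and *Il6ra* (0.988), *Dusp5* most like *Samsn1* (0.98) and *Prkch* (0.978), and *Spred1* most like *Rtn4* (0.977) and *Slc49a4* (0.975). *Dusp4* went with *Zfp638* (0.956) and *Larp1b* (0.95), *Dusp2* with *Crlf2* (0.954) and *Krtcap2* (0.943), *Spred2* with *Dnajc10* (0.949) and *Zbtb43* (0.942), and *Dusp6* with *Tap2* (0.945) and *Rfx5* (0.937). The other 3 genes had lower correlations with their nearest partners, *Pnpla7* (0.89) and *Ampd3* (0.888) for *Spry1*, *Evi5l* (0.856) and *Lrp8* (0.855) for *Dusp1*, and *Ints10* (0.847) and *Hsh2d* (0.823) for *Spry2*. Within the 10 genes the closest pair was *Dusp5* and *Spred2* (r = 0.911), which fell to -0.15 once each group's mean was removed, and the most opposed was *Dusp2* and *Spred1* (r = -0.957, and -0.825 within groups).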

How the data were processed

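RNA-seq was done on 12 libraries of mouse Th9 cells, 3 in each of 4 groups taken from the sample titles. The authors deposited FPKM (counts scaled by gene length and library depth), made with Trim Galore for trimming, HISAT2 for alignment to GRCm38, and featureCounts for counting. The annotation release and the use of strand in counting are not given in the sources used here. The authors' own differential expression used DESeq2 on counts, which were not used here.

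The table held 32352 lines for 32051 genes (301 lines repeat a gene with the same values), and 0 columns belonged to no library. With GENCODE M21 exon lengths (99.9% of genes), 97.9% to 98.2% of values up to 200 reads were whole reads within 0.02 read, and these reads entered the voom alternative only. Sequencing was paired-end, and whether both ends of a fragment were counted is not given. Genes at 2 reads outnumbered those at 1 in every library (1098 against 539 in DMSO replicate 1). Independent fragments may therefore be fewer than the reads printed here and used by voom. Precision is limited by counting error at low levels, and 1 read on 1 kb was 0.0225 to 0.0273 FPKM.

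The 13733 genes that averaged 0.1 FPKM or more were tested with limma 3.58.1 in R 4.3.3 on log2(FPKM + 0.1), as 4 group means with an intensity trend. Tests were two-sided, and adjusted over all tested genes by the Benjamini-Hochberg method, with a call at 0.05 and the study's 1.5-fold change as a second rule. A fold change on this scale understates that of low genes. A permutation test of 3 against 3 libraries cannot go below 0.1 and was not used. All 10 members were named, with up to 3 genes per list and DMSO comparison (largest called change, mean of at least 1 FPKM) and the 2 most correlated genes per member. The members and lists were chosen with earlier results of these data known. Alternatives changed the pseudocount, minimum, scaling, groups in the fit, trend, replicate block, fold rule, test (voom), and libraries, each left out in turn. The fit was tested on simulated data. Promoter windows are from RefSeq on GRCm38.p6.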

Additional observations from a re-analysis of the deposited data

How the results depend on the processing

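The log2 fold changes of the 10 genes in 5 comparisons gave 840 alternative values over 22 settings, of which 779 kept direction and side of the threshold, 44 lost the call, 8 gained one, and 9 changed sign, all of the last in uncalled results with 1 library left out. Leaving out 1 library gave ranges of -0.448 to 0.0664 (*Spry2*, EpA against DMSO), -0.0415 to 0.473 (*Spry2*, fatostatin against DMSO), -0.215 to 0.0294 (*Spry2*, both compounds against fatostatin), -0.134 to 0.381 (*Spry2*, interaction), -0.0224 to 0.088 (*Dusp2*, interaction), -0.0031 to 0.045 (*Dusp4*, both compounds against fatostatin), and -0.0032 to 0.0408 (*Dusp5*, both compounds against fatostatin). Counts of called members ranged, with 1 library left out, from 2 to 4 lower with EpA, 2 to 4 higher and 0 to 1 lower with fatostatin, 3 to 4 higher with both compounds against EpA, and 1 to 2 higher and 1 to 2 lower with both against fatostatin. With a 1.5-fold change as well, the counts were 0 higher and 0 lower with EpA, 0 higher with fatostatin, 1 higher with both against EpA, and 0 higher and 0 lower with both against fatostatin. Without the intensity trend 2 were higher with fatostatin and 3 with both against EpA. Fits without a minimum, of the compared groups alone, or with the replicate block gave 3 higher with both against EpA, and the compared groups alone gave 1 higher and 1 lower with both against fatostatin. The cause of these changes was not tested, beyond the fewer libraries or the added fold rule. Counts for the pathway lists stayed within 1.5 times in 981 of 1080 cases. Same-numbered libraries of different groups did not deviate together (r from -0.0472 to 0.0744 over 18 pairs, 0 over 0.1), so the replicate numbers do not pair the samples, and the replicate block, besides the count of 3, gave a call to *Spred2* with EpA (adjusted p = 0.0284, limma). *Spry1* and *Spry2* rested on 29 to 158 reads per library, and *Spry2* ran from 29 to 61 reads among the DMSO libraries.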
